A study of Arabidopsis thaliana with 12 samples.

Results

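Genes whose transcript level was higher with hyperphyllin than with its solvent in both amp1-13 and wild-type Arabidopsis seedlings are described here. For each gene the gap was computed in each genotype as the lowest of the 3 hyperphyllin arrays minus the highest of the 3 DMSO arrays, on the log2 scale, and the score of a gene was the smaller of its 2 gaps. A score above 0 thus means that treated and untreated arrays did not overlap in either genotype. Of 16554 genes ranked, the 100 with the highest score were taken. From these, AT4G15660, AT4G15670, AT4G15680, AT4G15700 and PDF1.4 had been named for exclusion and were removed, which left 95. A further excluded name, AT4G15690, was not in the top 100. The genes were thus chosen by their measured treatment differences in both genotypes, so their hyperphyllin minus DMSO values are given as a description and carry no test.

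RNA came from whole seedlings of the Col-0 accession grown for 10 d in 96-well plates in liquid half-strength Murashige and Skoog medium with sucrose. There were 4 groups of 3 arrays: amp1-13 with 30 µM hyperphyllin, amp1-13 with 1% DMSO, wild type with 30 µM hyperphyllin, and wild type with 1% DMSO. The hyperphyllin groups held 1% DMSO as well, and untreated below means the solvent alone. The wells held several seedlings each, so the samples may pool individuals, and the mutant is represented by a single allele. The labels call the 3 samples of a group biological replicates, and a p-value below measures only the spread between such samples. Since whole seedlings were extracted, more cells of a type and more RNA per cell cannot be told apart.

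AMP1 codes for a putative carboxypeptidase in the membrane of the endoplasmic reticulum, and seedlings that lack it produce leaves faster from an enlarged shoot meristem. Hyperphyllin is a small molecule known for giving wild-type seedlings an appearance like that of amp1 mutants. Treating the mutant as well as the wild type shows which transcripts differ with the compound in seedlings of both genotypes. The level of AMP1 was not analysed here, and no array's genotype could be tested by it.

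Array medians over the ranked genes lay between 4.11 and 4.16 (log2). The first principal component held 40.4% of the variance. On it wild type's DMSO arrays 2 and 3 scored 43.9 and 47.7, while the remaining arrays scored -28.1 to 0.78. DMSO array 1 of wild type was among those, with -9.82. Among cell type markers, the array means of 2 measured leaf mesophyll markers (of 12 listed) were 9.70 to 9.77 in amp1-13 with hyperphyllin, 9.68 to 9.75 in amp1-13 with DMSO, 9.64 to 9.65 in wild type with hyperphyllin and 9.23 to 9.60 in wild type with DMSO (log2). Those of 3 measured root markers (of 16 listed) were 6.66 to 7.37, 7.23 to 7.38, 6.84 to 7.28 and 6.92 to 8.14 in the same order of groups. Within untreated wild type the root-hair gene EXPA7 was at 5.13, 6.79 and 6.52 and EXPA18 at 4.02, 5.51 and 6.05 in arrays 1, 2 and 3, so both were higher in the arrays that stood apart. The leaf marker LHCB4.1 was lower there, at 8.48, 8.32 and 7.87. RCA, the other measured leaf marker, differed less, at 10.73, 10.70 and 10.60. The remaining measured root marker is not given here. The part of these markers in the results below was not tested.

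All 95 genes matched a protein-coding locus of RefSeq. Only 11 of them carried a symbol of their own, and the other 84 are known here by locus code, for which no role is given. Scores ran from 0.09 to 0.80 with a median of 0.17. Just inside the limit of the top 100 lay AT1G21680 and AT5G02940 at 0.092 and AT5G06970 at 0.091. Just outside it lay GLR3.5 at 0.091, XTH19 at 0.089 and AT2G05540 at 0.088. The limit therefore falls within a continuous run of scores. The gap that set the score was the one in amp1-13 for 61 genes and the one in wild type for 34.

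The highest score belonged to AT5G62720. Its log2 levels were 5.22, 5.92 and 5.17 in amp1-13 with hyperphyllin, against 3.89, 3.98 and 4.11 in amp1-13 with DMSO, and 4.92, 4.94 and 4.95 in wild type with hyperphyllin, against 4.12, 3.17 and 3.82 in wild type with DMSO. All 6 treated arrays lay above all 6 untreated ones, and the mean difference was 1.44 in amp1-13 and 1.24 in wild type. AT4G12900 followed, with levels of 7.25, 7.19 and 7.46 in amp1-13 with hyperphyllin, against 6.46, 6.24 and 6.39 in amp1-13 with DMSO, and 7.49, 7.68 and 7.54 in wild type with hyperphyllin, against 6.001, 5.78 and 5.25 in wild type with DMSO. Its treated arrays of both genotypes stood close together, while its untreated arrays were lower in wild type, so the mean difference was 0.93 in amp1-13 and 1.89 in wild type.

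AT1G56300 was, on average, higher in wild type than in amp1-13 among its untreated arrays. It had 7.53, 7.76 and 8.23 in amp1-13 with hyperphyllin, against 6.81, 6.92 and 6.81 in amp1-13 with DMSO, and 8.26, 8.61 and 8.92 in wild type with hyperphyllin, against 6.89, 7.47 and 7.58 in wild type with DMSO. Its highest wild-type DMSO array lay above its lowest treated amp1-13 array, so the groups were separate within each genotype but not across them. The differences were 0.99 in amp1-13 and 1.28 in wild type. AT5G18600 had 6.76, 6.66 and 6.47 in amp1-13 with hyperphyllin, against 5.42, 5.40 and 5.75 in amp1-13 with DMSO, and 6.01, 5.97 and 5.95 in wild type with hyperphyllin, against 5.45, 3.35 and 3.61 in wild type with DMSO. DMSO array 1 of wild type lay about as high as the untreated mutant and far above arrays 2 and 3. The mean difference was 1.104 in amp1-13 and 1.84 in wild type.

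**Figure D1:**
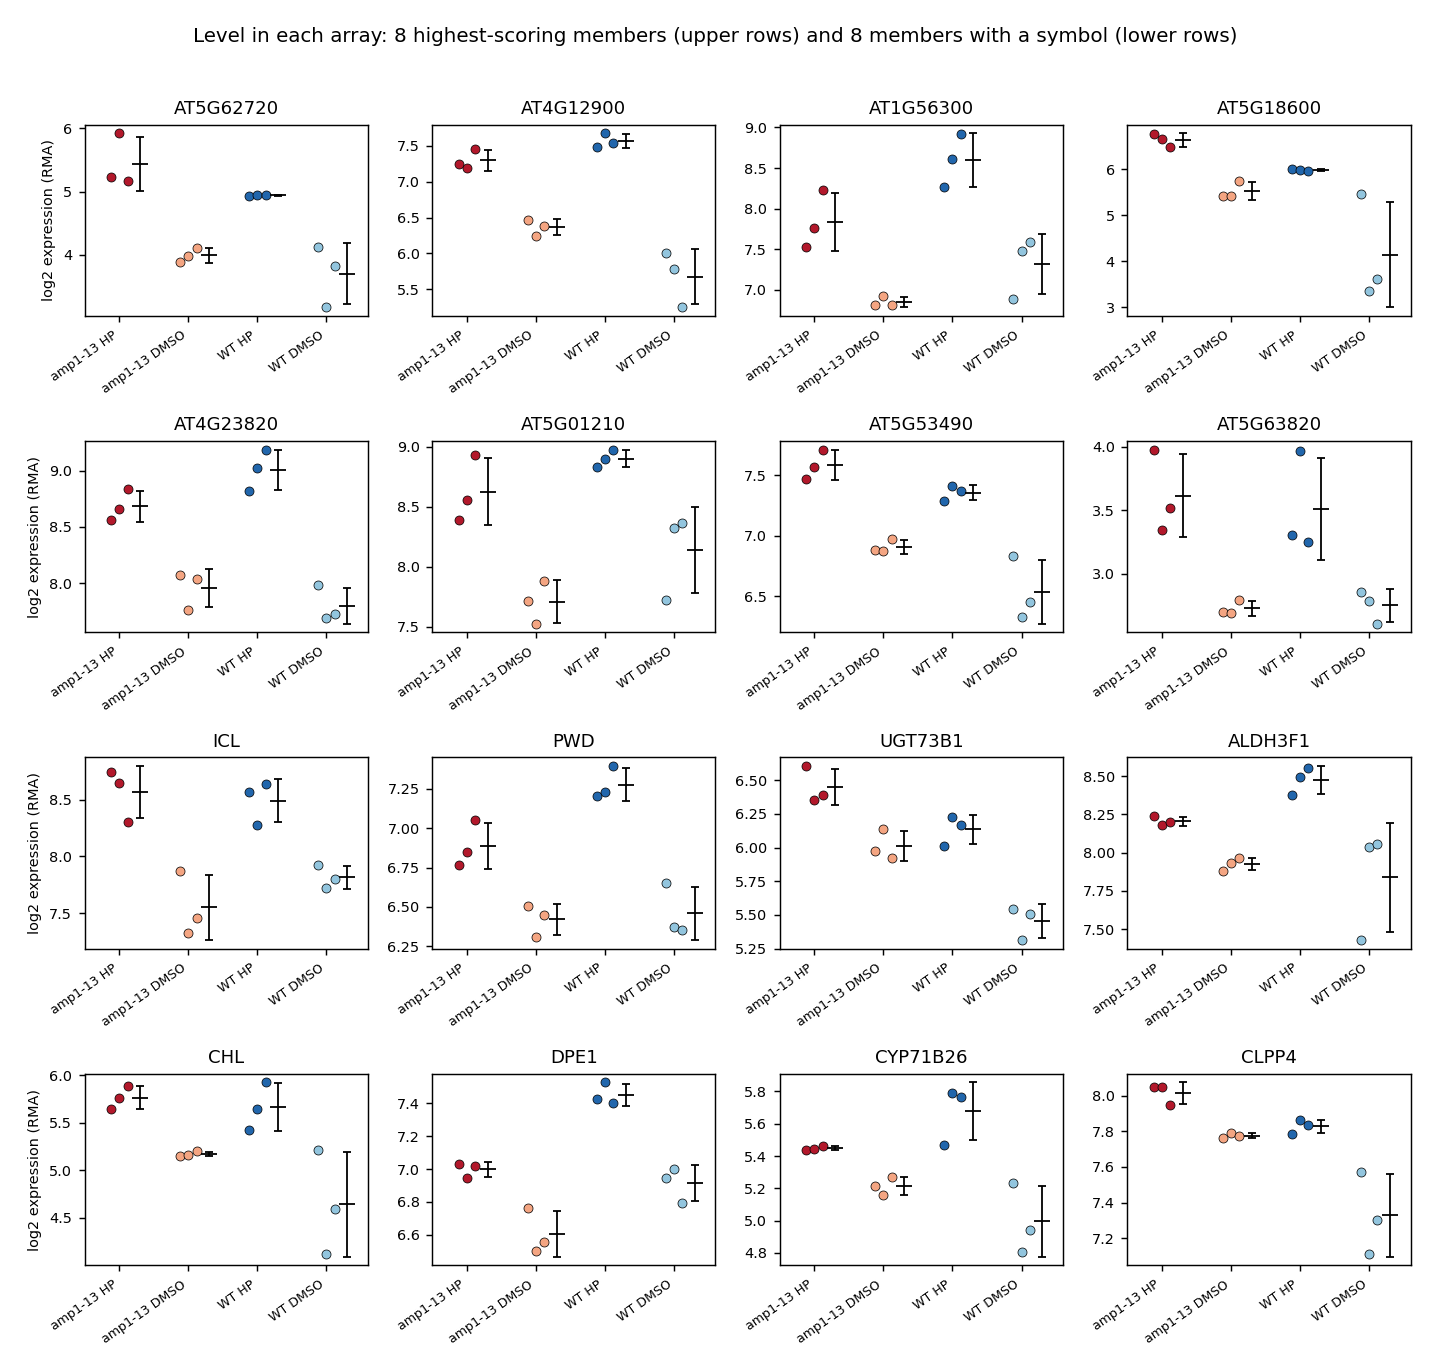
Log2 level (vertical axis) of 16 of the 95 genes in each of the 12 arrays, by group (horizontal axis: amp1-13 HP, amp1-13 DMSO, WT HP, WT DMSO; HP is hyperphyllin, WT wild type). Circles are arrays in the order of their replicate numbers, and bars give the mean ± SD of 3 arrays. AT5G62720 has its 6 treated arrays at 4.92 or above and its 6 untreated ones at 4.12 or below.

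The remaining genes among the 15 highest scores were AT4G23820, AT5G01210, AT5G53490, AT5G63820, AT5G64110, AT5G24490, ICL, AT4G01130, AT3G04550, AT1G19530 and AT5G24570. Their mean differences lay between 0.43 (AT3G04550) and 1.01 (ICL) in amp1-13 and between 0.67 (ICL) and 1.59 (AT4G01130) in wild type. AT4G01130 differed most between genotypes within this group. It had 5.78, 5.85 and 5.91 in amp1-13 with hyperphyllin, against 5.30, 5.35 and 5.43 in amp1-13 with DMSO, and 6.48, 6.67 and 6.38 in wild type with hyperphyllin, against 4.86, 5.11 and 4.79 in wild type with DMSO. The mutant's arrays thus lay inside the range that wild type spanned between the treatments. AT5G63820 was a dim gene, with levels of 3.25 to 3.98 in the 6 treated arrays and 2.61 to 2.86 in the 6 untreated ones.

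The 11 genes with a symbol fall into a few kinds of enzyme and chloroplast protein, and 6 of them code for proteins of the chloroplast. The share of such proteins among all ranked genes was not analysed, so nothing is read from this count. Breakdown of starch, the leaf's glucose store, requires that the granule surface first be phosphorylated, and PWD, the phosphoglucan, water dikinase, is an enzyme that does this. PWD had 6.77, 6.85 and 7.05 in amp1-13 with hyperphyllin, against 6.50, 6.31 and 6.45 in amp1-13 with DMSO, and 7.20, 7.23 and 7.39 in wild type with hyperphyllin, against 6.65, 6.37 and 6.35 in wild type with DMSO. All treated arrays were above all untreated ones, and the treated wild-type arrays were above the treated mutant ones. The locus measured was AT5G26570. The annotation gives the same symbol to AT4G24450, which ranked 15802. DPE1, the plastid disproportionating enzyme that acts on the short maltodextrins of starch breakdown, had 7.03, 6.95 and 7.02 in amp1-13 with hyperphyllin, against 6.76, 6.50 and 6.56 in amp1-13 with DMSO, and 7.43, 7.53 and 7.40 in wild type with hyperphyllin, against 6.95, 7.003 and 6.79 in wild type with DMSO. Its mutant arrays lay lower than wild type in each medium, and untreated wild type overlapped treated amp1-13. The mean differences were 0.47 for PWD and 0.39 for DPE1 in amp1-13, and 0.82 and 0.54 in wild type.

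GSA1 codes for the aminomutase that makes aminolevulinate, the precursor of chlorophyll and haem. Its levels were 8.05, 7.95 and 7.89 in amp1-13 with hyperphyllin, against 7.60, 7.51 and 7.77 in amp1-13 with DMSO, and 7.81, 7.85 and 7.73 in wild type with hyperphyllin, against 7.42, 7.30 and 7.16 in wild type with DMSO. Both mutant groups stood above their wild-type counterparts, and 1 of the 3 untreated mutant arrays exceeded the lowest treated wild-type array. CHL, a lipocalin that protects thylakoid lipids from oxidation, had 5.64, 5.76 and 5.89 in amp1-13 with hyperphyllin, against 5.16, 5.16 and 5.20 in amp1-13 with DMSO, and 5.43, 5.65 and 5.93 in wild type with hyperphyllin, against 5.21, 4.12 and 4.60 in wild type with DMSO. As for AT5G18600, DMSO array 1 of wild type was near the untreated mutant and the other 2 were lower. CLPP4, a subunit of the chloroplast Clp protease core, differed by 0.24 in amp1-13 and 0.50 in wild type, with all levels between 7.11 and 8.05. WTF1, a splicing factor of chloroplast group II introns, differed by 0.28 and 0.36 and was the dimmest of the 95 genes, at 1.84 to 2.57.

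Another group consists of enzymes that oxidise or conjugate small molecules. UGT73B1, a UDP-glucosyltransferase, had 6.61, 6.36 and 6.39 in amp1-13 with hyperphyllin, against 5.98, 6.14 and 5.93 in amp1-13 with DMSO, and 6.02, 6.22 and 6.17 in wild type with hyperphyllin, against 5.55, 5.31 and 5.51 in wild type with DMSO. The mutant was higher than wild type in both media without overlap, and the untreated mutant overlapped treated wild type. CYP71B26, a cytochrome P450, differed by 0.23 in amp1-13 (5.44, 5.44 and 5.46 with hyperphyllin, against 5.21, 5.16 and 5.27 with DMSO) and by 0.68 in wild type (5.47, 5.79 and 5.77, against 5.24, 4.81 and 4.94). ALDH3F1, an aldehyde dehydrogenase, differed by 0.28 in amp1-13 (8.24, 8.18 and 8.20 with hyperphyllin, against 7.88, 7.93 and 7.96 with DMSO) and by 0.64 in wild type (8.38, 8.49 and 8.56, against 7.43, 8.03 and 8.06). In ALDH3F1 it was DMSO array 1 of wild type that was low, the reverse of CHL.

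The last 2 genes with a symbol act in carbon metabolism. ICL codes for isocitrate lyase, an enzyme of the glyoxylate cycle through which seedlings turn stored fat into sugar. It had 8.74, 8.65 and 8.31 in amp1-13 with hyperphyllin, against 7.87, 7.32 and 7.46 in amp1-13 with DMSO, and 8.56, 8.27 and 8.63 in wild type with hyperphyllin, against 7.92, 7.72 and 7.80 in wild type with DMSO. Treated arrays of both genotypes covered the same range above all untreated ones, and ICL was the only gene with a symbol that differed by at least 2-fold in amp1-13. PDC2, a pyruvate decarboxylase of the route to ethanol, had 5.69, 5.68 and 5.63 in amp1-13 with hyperphyllin, against 5.49, 4.68 and 5.53 in amp1-13 with DMSO, and 5.62, 5.72 and 6.06 in wild type with hyperphyllin, against 5.11, 5.49 and 5.39 in wild type with DMSO. The 6 treated arrays lay above the 6 untreated ones, and DMSO array 2 of amp1-13 was far below the rest.

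Over the 95 genes, hyperphyllin minus DMSO ranged from 0.16 (AT1G78995) to 1.44 (AT5G62720) in amp1-13, with a median of 0.43, and from 0.18 (AT5G06970) to 1.89 (AT4G12900) in wild type, with a median of 0.68. The same medians over all ranked genes were -0.00 in amp1-13 and -0.05 in wild type. Differences of at least 2-fold were reached by 4 of the 95 in amp1-13, namely AT5G62720, AT5G18600, AT1G68238 and ICL. Of all ranked genes, 14 (0.0846%) reached them there. In wild type 16 of the 95 did, beside 190 of all ranked genes (1.15%). AT5G62720 and AT5G18600 did so in both genotypes, beside 6 of all ranked genes (0.0362%). For 69 of the 95, all 6 treated arrays lay above all 6 untreated ones whatever the genotype, as they did for 0.755% of ranked genes. For the other 26 the genotypes differed enough for treated arrays of one genotype to overlap untreated arrays of the other.

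**Figure D2:**
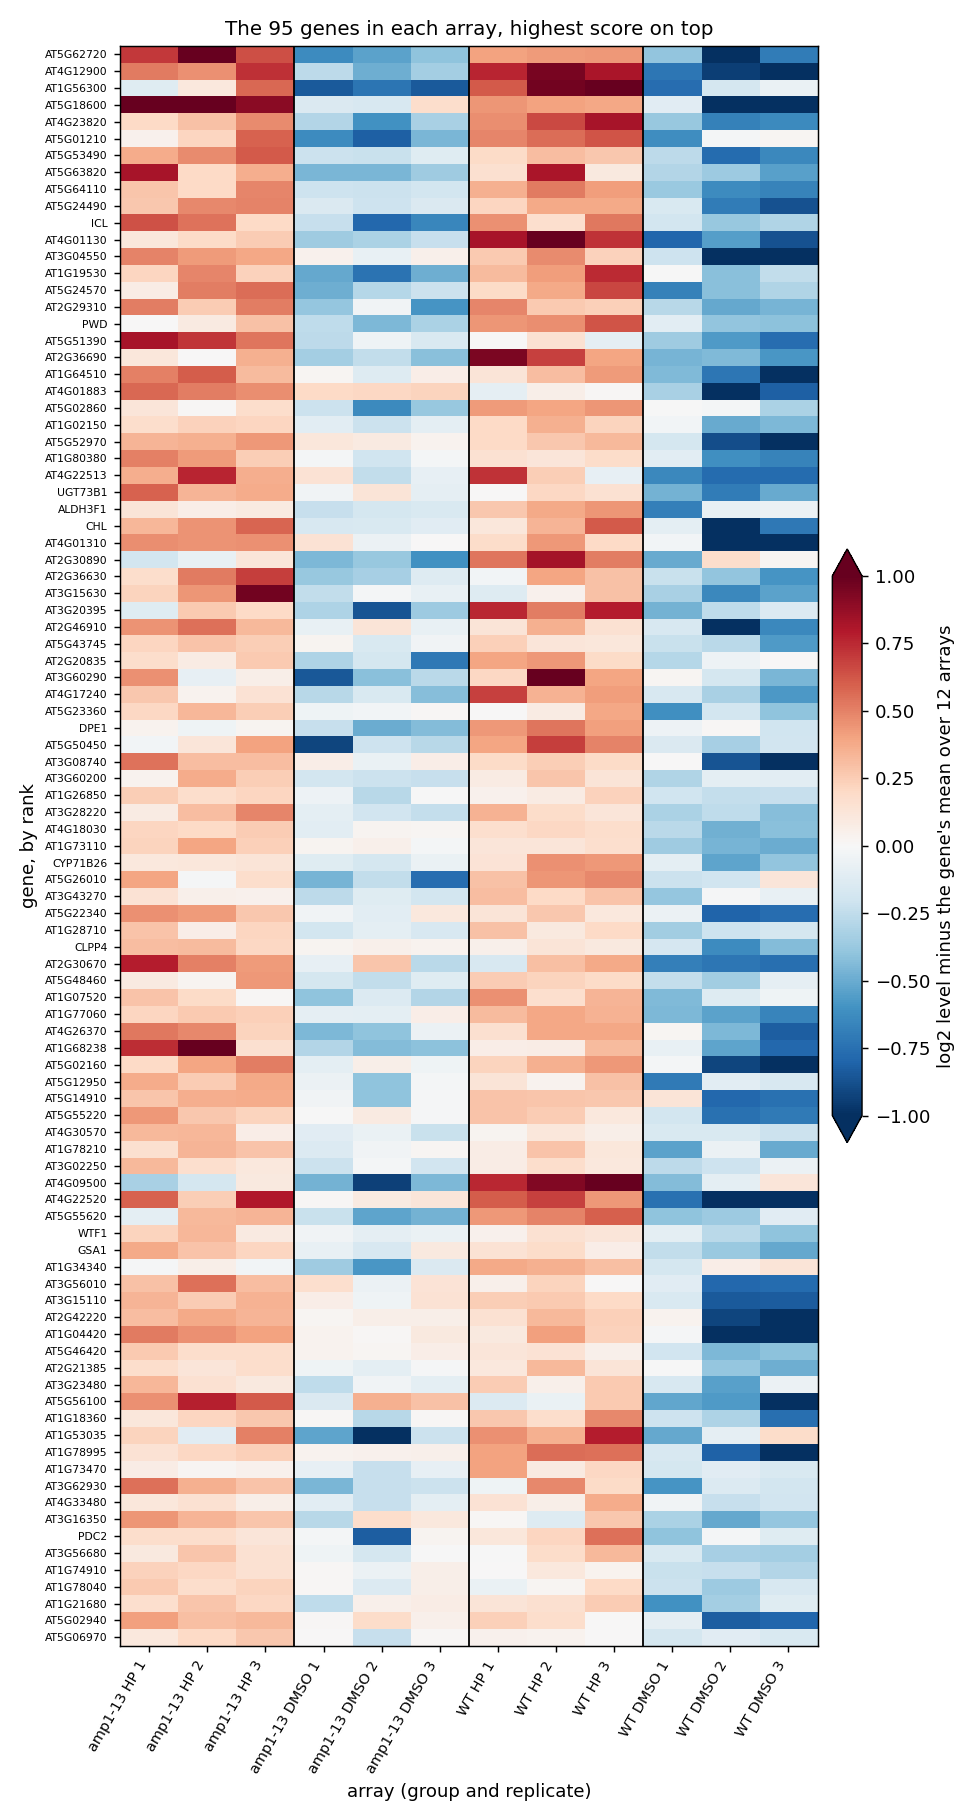
Level of each of the 95 genes (rows, highest score on top) in each of the 12 arrays (columns), as log2 level minus the gene's mean over the 12 arrays; the colour scale ends at 1 in each direction. Treated columns are mostly red and untreated columns mostly blue, and the deepest blues are in DMSO arrays 2 and 3 of wild type, whose medians over the genes are -0.42 and -0.46, against -0.22 for DMSO array 1.

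The linear model over all arrays (limma, Benjamini-Hochberg adjustment over 17504 probe sets with a gene) gave an adjusted p under 0.05 to 0 of the 95 genes for hyperphyllin in amp1-13, where 0.0171% of all probe sets passed. At an unadjusted p under 0.05 there were 73, where 7.17% of all probe sets passed, and the smallest adjusted value among the 95 was 0.0571. For hyperphyllin in wild type it passed 45 of the 95, all higher, where 1.64% of all probe sets passed (1.16% higher). Both contrasts were used to choose the genes, so nothing is read from these counts. They also hinged on DMSO array 1 of wild type: without it the counts were 18 in amp1-13 (0.788% of all probe sets) and 81 in wild type (14% of all probe sets). Leaving out another array gave 0 to 2 in amp1-13 (0.0114% to 0.04% of all probe sets). In wild type the count was 8 when DMSO array 2 and 20 when DMSO array 3 was left out (0.154% and 0.617% of all probe sets). It was 18, 7 and 9 when hyperphyllin array 1, 2 or 3 was (0.411%, 0.131% and 0.32%).

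The treatment difference was larger in wild type than in amp1-13 for 75 of the 95 genes and larger in amp1-13 for 20. Over all ranked genes it was the higher one in wild type for 42.8%. With DMSO array 1 of wild type alone as its untreated sample the count was 61, and with arrays 2 and 3 alone it was 76. Both differences entered the choice of the genes, so these counts are descriptions and nothing is read from them. Arrays that spread more need a larger mean difference to stay apart. The median SD was 0.21 in wild type with DMSO and 0.10 in amp1-13 with DMSO. The median difference in wild type was 0.51 against array 1 alone and 0.77 against arrays 2 and 3, beside 0.43 in amp1-13. The genes with the widest disparity were AT4G22520 (0.47 in amp1-13 and 1.77 in wild type), AT4G01130 (0.49 and 1.59) and AT1G78995 (0.16 and 1.25). The larger amp1-13 differences included AT1G68238 (1.08 in amp1-13 and 0.61 in wild type), AT5G62720 and ICL.

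The interaction, which is the difference between the 2 contrasts that chose the genes, ranged from -1.30 to 0.46 with a median of -0.24, and the median over all probe sets was 0.04. It passed the adjusted threshold for 0 of the 95 (0% of all probe sets), with 18 of the 95 and 1448 of 17504 below 0.05 before adjustment and 0.128 as the smallest adjusted value. It passed for 17 when DMSO array 1 of wild type was left out, as for 2.75% of all probe sets, and nothing is read from this count since both contrasts chose the genes.

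**Figure D3:**
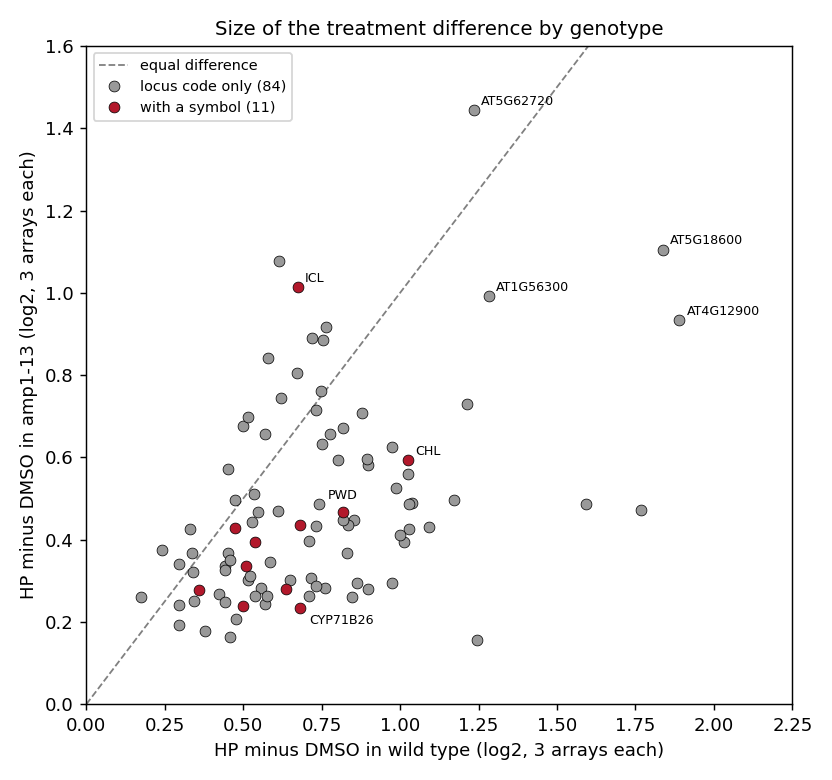
Mean hyperphyllin (HP) minus DMSO difference of each of the 95 genes in wild type (horizontal axis, log2, 3 arrays each) and in amp1-13 (vertical axis, log2, 3 arrays each), with genes that carry a symbol in red. The dashed line marks equal differences; 75 points lie below it, with the larger difference in wild type, and 20 above it.

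Untreated wild type was the least uniform group. The median SD of the 95 genes over 3 arrays was 0.12 in amp1-13 with hyperphyllin, 0.10 in amp1-13 with DMSO, 0.12 in wild type with hyperphyllin and 0.21 in wild type with DMSO. Over all ranked genes it was 0.13, 0.13, 0.12 and 0.19 in the same order of groups. For 50 of the 95 (52.6%), DMSO arrays 2 and 3 of wild type were the lowest of all 12, as for 9.06% of ranked genes. The rule chose genes whose DMSO arrays lay below the treated ones, so low values there follow in part from the choice. This share and the next ones are descriptions. DMSO array 1 was the highest of its group for 62 (65.3%, against 39.9% of ranked genes). It exceeded both others by more than 0.5 for 18 genes (18.9%, against 7.29% of ranked genes), CHL and AT5G18600 among them, and lay more than 0.5 below both for 5 (5.26%, against 8.43%).

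A bright example is AT4G01310. It had 8.91, 8.90 and 8.90 in amp1-13 with hyperphyllin, against 8.60, 8.39 and 8.45 in amp1-13 with DMSO, and 8.63, 8.88 and 8.65 in wild type with hyperphyllin, against 8.42, 7.35 and 7.31 in wild type with DMSO. AT1G04420 showed the same form, with 8.26, 8.20 and 8.14 in amp1-13 with hyperphyllin, against 7.77, 7.75 and 7.84 in amp1-13 with DMSO, and 7.84, 8.15 and 7.97 in wild type with hyperphyllin, against 7.73, 6.67 and 6.56 in wild type with DMSO. In both genes 10 arrays lie within a 2-fold range, and the 2 untreated wild-type arrays that also stand apart in the principal components lie well below them. Both were singled out after their values were seen.

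Genotype was compared next, since the rule set no genotype against the other. The difference between amp1-13 and wild type averaged over both media is orthogonal to the contrasts that chose the genes. The difference within a medium is not, and shares arrays with them. The average uses the same arrays too, and orthogonal contrasts are independent only where groups spread alike. Untreated wild type spread more, with a median SD of 0.21 over the 95 genes, against 0.10 to 0.12 in the other groups. The choice may thus bear on the calls over both media as well. A gap is also larger where replicates lie close together, so the genes were in part chosen for a small spread. Averaged over both media, 9 of the 95 genes passed (limma, adjusted p under 0.05), 6 higher and 3 lower in amp1-13, where 1.86% of all probe sets passed (1.19% higher and 0.668% lower). Among the 80 of the 95 above the median level of all probe sets, 7 passed, where 2.75% of probe sets above that level passed.

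AT4G01883 was the one call over both media that held with each array left out in turn and under the 6 other settings tried. It had 7.69, 7.63 and 7.58 in amp1-13 with hyperphyllin, against 7.03, 7.18 and 7.13 in wild type with hyperphyllin, and 7.32, 7.32 and 7.35 in amp1-13 with DMSO, against 6.79, 6.10 and 6.30 in wild type with DMSO. Every mutant array was higher than every wild-type array, the untreated mutant included. Averaged over both media it was higher in amp1-13 by 0.73 ± 0.10 (log2, SE, 6 arrays per genotype, limma adjusted p = 0.011), with adjusted p between 2.18e-05 and 0.044 over 18 alternatives. In DMSO alone the difference was 0.93 ± 0.15 (3 arrays per genotype, limma adjusted p = 0.0463).

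AT4G09500 had 4.48, 4.63 and 4.90 in amp1-13 with hyperphyllin, against 5.56, 5.73 and 5.80 in wild type with hyperphyllin, and 4.33, 3.87 and 4.35 in amp1-13 with DMSO, against 4.37, 4.71 and 4.92 in wild type with DMSO. It was lower in the mutant in both media, by a wide margin with hyperphyllin and a narrow one with DMSO. The difference over both media was -0.75 ± 0.12 (limma adjusted p = 0.0184), and in hyperphyllin it was -1.03 ± 0.17 (limma adjusted p = 0.0404). The call over both media ended without DMSO array 2 of wild type, hyperphyllin array 2 of wild type, or hyperphyllin array 1 or 2 of amp1-13, with adjusted p up to 0.0638. The call in hyperphyllin ended without any treated array, without DMSO array 2 of wild type, and without DMSO array 1 or 3 of amp1-13, with adjusted p up to 0.204.

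The other calls over both media were AT5G51390 (0.54 ± 0.09, limma adjusted p = 0.0197), UGT73B1 (0.44 ± 0.08, adjusted p = 0.0243), DPE1 (-0.38 ± 0.07, adjusted p = 0.0259), AT5G56100 (0.78 ± 0.15, adjusted p = 0.0278), AT1G73110 (0.30 ± 0.06, adjusted p = 0.0362), AT2G30670 (0.55 ± 0.12, adjusted p = 0.0414) and AT2G30890 (-0.52 ± 0.12, adjusted p = 0.0495). The last 2 of these lie outside the rule for named genes and were added after their values were seen. AT5G51390 had 4.33, 4.23 and 4.04 in amp1-13 with hyperphyllin, against 3.51, 3.66 and 3.42 in wild type with hyperphyllin, and 3.25, 3.46 and 3.36 in amp1-13 with DMSO, against 3.16, 2.94 and 2.75 in wild type with DMSO. Mutant arrays lay above wild-type arrays in each medium. Each of these 7 calls ended without DMSO array 2, hyperphyllin array 1 or hyperphyllin array 2 of wild type, and without DMSO array 2 or 3 or hyperphyllin array 1 or 2 of amp1-13. Their adjusted p was at most 0.123 over all alternatives, and their direction did not turn.

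Calls within a medium, here and above, share arrays with the contrasts that chose the genes. The choice may bear on them, and they are given as descriptions. In DMSO alone 3 genes passed, all higher in amp1-13, where 0.326% of all probe sets passed (0.257% higher). They were AT4G01883, AT4G22520 (1.27 ± 0.21, limma adjusted p = 0.0463) and AT1G77060 (0.51 ± 0.09, adjusted p = 0.0484). AT4G22520 had 7.04, 7.11 and 7.15 in amp1-13 with DMSO, against 6.27, 5.89 and 5.32 in wild type with DMSO, and 7.61, 7.27 and 7.82 in amp1-13 with hyperphyllin, against 7.63, 7.70 and 7.45 in wild type with hyperphyllin. The genotypes were thus apart in the solvent and overlapped with the compound. With hyperphyllin 2 genes passed, both lower in amp1-13, where 0.229% of all probe sets passed (0.109% lower): AT4G09500 and AT4G01130 (-0.67 ± 0.11, adjusted p = 0.0404), whose values are given above. In DMSO, the 3 mutant arrays of AT4G01130 lay above the wild-type ones. The DMSO calls ended without any array other than DMSO array 1 of wild type, and that of AT4G01130 without any array outside the untreated wild type, with adjusted p up to 0.169 in DMSO and 0.209 for AT4G01130.

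The counts moved with single arrays. Without DMSO array 1 of wild type, 45 of the 95 passed over both media (38 higher, 7 lower), 45 in DMSO (40 higher, 5 lower) and 8 in hyperphyllin (3 higher, 5 lower). Without DMSO array 2 or 3 of wild type the counts over both media were 1 and 5 (0.291% and 0.44% of all probe sets). Without hyperphyllin array 1, 2 or 3 of wild type they were 2, 1 and 4 (0.371%, 0.143% and 0.56%). Without DMSO array 2 or 3 of amp1-13 the count was 2 each time (0.383% and 0.269% of all probe sets). Without hyperphyllin array 1, 2 or 3 of amp1-13 it was 1, 1 and 4 (0.36%, 0.274% and 0.903%). In DMSO leaving out any array other than DMSO array 1 of wild type left 0, where 0% to 0.0914% of all probe sets passed. With hyperphyllin such an omission left 0 to 3, where 0.00571% to 0.274% passed. Calls over the whole table moved too: without DMSO array 1 of wild type 16.6% of all probe sets passed over both media, 15.3% in DMSO and 3.3% in hyperphyllin.

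In direction alone, the mean in amp1-13 was above that in wild type over both media for 67 of the 95 (70.5%, against 44.7% of ranked genes), in DMSO for 73 (76.8%, against 41.7%) and in hyperphyllin for 57 (60%, against 50.5%). The median difference was 0.15 over both media, 0.22 in DMSO and 0.08 in hyperphyllin, against -0.02, -0.04 and 0.00 over all probe sets. With DMSO array 1 of wild type alone the DMSO count was 63 (66.3%, against 46.6% of ranked genes), and with arrays 2 and 3 alone it was 71 (74.7%, against 43.8%). For 36 of the 95 (37.9%, against 6.97% of ranked genes) all amp1-13 DMSO arrays lay above all wild-type DMSO arrays, and for 4 (4.21%, against 9%) they all lay below. With hyperphyllin the corresponding counts were 21 (22.1%, against 11.4%) and 19 (20%, against 10.6%). Since the DMSO arrays of both genotypes entered the choice of the genes, these counts are descriptions.

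**Figure D4:**
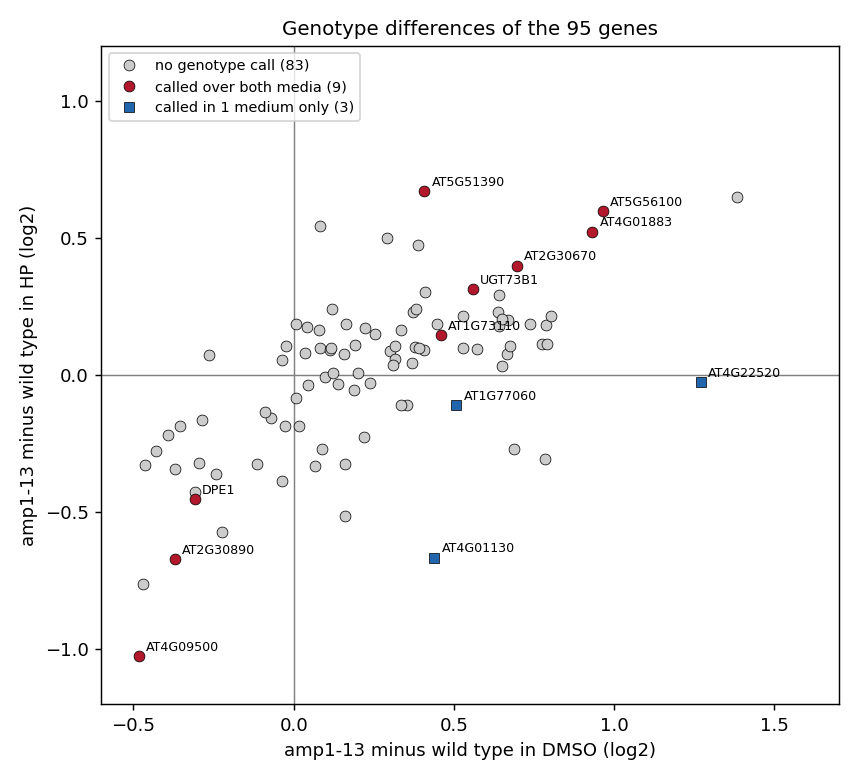
Difference between amp1-13 and wild type of each of the 95 genes in DMSO (horizontal axis, log2) and in hyperphyllin (HP; vertical axis, log2), 3 arrays per group. Red circles mark the 9 genes called over both media and blue squares the 3 called in 1 medium only (limma adjusted p under 0.05); 54 points lie in the upper right, higher in amp1-13 in both media, and 19 in the lower left.

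The genes were brighter than most. Their mean level over the 12 arrays had a median of 6.33 (quartiles 4.84 and 7.65), against 4.13 (2.28 and 6.07) for all ranked genes, and ran from 2.24 (WTF1) to 10.1 (AT3G08740). Of the 95, 13 lay below every array's median. Gene length had a median of 2123 bp, against 1913 bp. By chromosome, 21 of the 95 were on chromosome 1, 9 on 2, 18 on 3, 16 on 4 and 31 on 5. Chromosome 5 thus held 32.6% of the 95 and 23.1% of ranked genes, and chromosome 2 held 9.47% and 15.3%.

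Few of the genes were close neighbours. Counting protein-coding genes in RefSeq order, 6 pairs lay within 10 genes of each other: AT4G22513 and AT4G22520 with 2 genes between them, AT2G36630 and AT2G36690 with 5, AT5G02860 and AT5G02940 with 7, AT5G24490 and AT5G24570 with 7, AT3G60200 and AT3G60290 with 9, and WTF1 and AT4G01130 with 9. The closest pair did not share a size of difference: AT4G22513 had 0.56 in amp1-13 and 1.03 in wild type, and AT4G22520 0.47 and 1.77. AT4G22513 was also dim, with 2.96, 3.36 and 2.96 in amp1-13 with hyperphyllin, against 2.74, 2.35 and 2.51 in amp1-13 with DMSO, and 3.31, 2.84 and 2.52 in wild type with hyperphyllin, against 1.95, 1.82 and 1.82 in wild type with DMSO.

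Of 41 listed starch turnover genes 7 were measured, among them PWD and DPE1, whose treatment contrasts carry no test here. For the other 5, 0 passed in either genotype, and their median hyperphyllin minus DMSO was -0.10 in amp1-13 and 0.11 in wild type. APL4 was the one of these 5 whose treated and untreated arrays did not overlap in either genotype. APL3, a large subunit of the enzyme that starts starch synthesis, was at -0.64 ± 0.11 in amp1-13 (SE, limma adjusted p = 0.0722) and -0.09 ± 0.11 in wild type (adjusted p = 0.698). APL4, another such subunit, was at 0.24 in amp1-13 and 0.45 in wild type and ranked 171.

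Among 9 measured genes of chlorophyll synthesis and light harvesting (of 48 listed) none belonged to the 95. PORB, which reduces protochlorophyllide in the light, rose in wild type by 1.17 ± 0.14 (limma adjusted p = 0.00324), against 0.31 ± 0.14 in amp1-13 (adjusted p = 0.679), and the photosystem I subunit gene PSAE-1 rose by 0.55 ± 0.10 (adjusted p = 0.025), against 0.14 ± 0.10 (adjusted p = 0.867). Of 4 measured chloroplast antioxidant genes (of 35 listed), CHL was among the 95, and TAPX, the thylakoid ascorbate peroxidase, rose in wild type by 0.80 ± 0.09 (adjusted p = 0.00324), against 0.08 ± 0.09 in amp1-13 (adjusted p = 0.929). The interaction passed for 0 of 17504 probe sets, so PORB, PSAE-1 and TAPX are not called different between genotypes in their response. Of 17 measured detoxification genes (of 58 listed), UGT73B1 was among the 95, and of the other 16, 0 passed in either genotype. GSTU18 was at -0.02 ± 0.21 in amp1-13 (adjusted p = 0.996) and 0.81 ± 0.21 in wild type (adjusted p = 0.0721). GSTU28 was at -0.46 ± 0.26 (adjusted p = 0.803) and -0.95 ± 0.26 (adjusted p = 0.0882) in the same order. UGT85A2 was at -0.40 ± 0.11 (adjusted p = 0.31) and 0.07 ± 0.11 (adjusted p = 0.773). GSTU25, a glutathione transferase outside the rule for named genes, was at -0.75 ± 0.21 in amp1-13 (adjusted p = 0.31) and -0.72 ± 0.21 in wild type (adjusted p = 0.101).

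Lists with none of the 95 among their measured genes were those of stress-induced transcription factors and ubiquitin ligases (10 measured of 61, with 3 higher in wild type, STZ, AR781 and PUB23), sugar status (11 of 42, 0 passing), the circadian clock (3 of 41, 0 passing), early auxin response (11 of 37, with GH3.17 lower in wild type), flavonoids (5 of 28, 0 passing) and cytokinin (5 of 47, 0 passing). In amp1-13, 0 genes passed in any of the lists. Of all probe sets, 0.0171% passed in amp1-13 and 1.64% in wild type. Nothing is therefore read from the counts of 0 in these lists and those above. The 3 measured stomatal markers had array means of 4.67 to 5.01 in amp1-13 with hyperphyllin, 4.69 to 4.94 in amp1-13 with DMSO, 5.42 to 5.62 in wild type with hyperphyllin and 4.90 to 5.09 in wild type with DMSO. Those of the 2 shoot meristem markers were 3.17 to 3.52, 2.63 to 2.76, 2.22 to 2.45 and 2.36 to 3.23 in the same order of groups. The stomatal means of treated and untreated arrays overlapped in amp1-13 and the meristem means in wild type. FMA, a stomatal transcription factor gene, did not overlap in either genotype and ranked 173.

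The ranking was set beside the rankings obtained when 3 of the 6 arrays of each genotype were called treated in every possible way, which gives 400 assignments with the labelled one. With the labels as given, 273 genes had a score above 0 (1.65% of ranked genes), while hyperphyllin lay above DMSO without overlap for 8.17% of ranked genes in amp1-13 and 8.76% in wild type. With the labels exchanged in both genotypes, which ranks genes lower with hyperphyllin, 257 did. The 399 assignments other than the labelled one had a median of 31 and a range of 8 to 330, and 1 of them reached a higher count than the labelled arrays. That one called none of the hyperphyllin arrays of amp1-13 and 1 of those of wild type treated. The score of the 100th gene was 0.0915 as labelled, and 2 other assignments exceeded it, the highest at 0.116. The mean of the 100 highest scores was 0.235 as labelled and at most 0.221 otherwise. As labelled, these 100 include the genes removed by name, with scores from 0.48 (AT4G15680) to 1.67 (AT4G15700). That mean is thus not the mean of the genes described here, which was not set beside the other assignments. These are descriptions of the ranking, with no p-value.

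**Figure D5:**
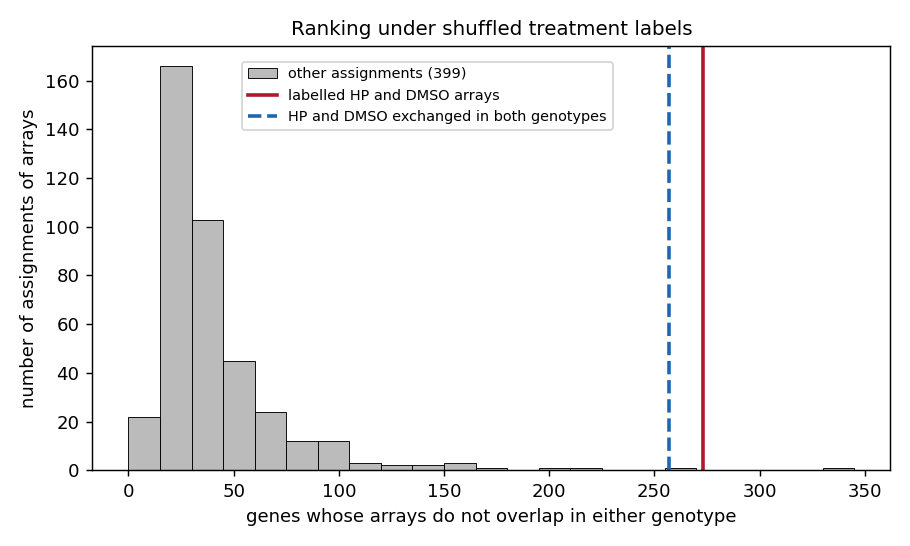
Number of assignments (vertical axis) by the number of genes whose arrays called treated lay above those called untreated in both genotypes (horizontal axis), over the 399 other assignments of 3 of 6 arrays per genotype. The red line marks the labelled arrays at 273 genes and the dashed blue line the exchanged labels at 257; most assignments lie near their median of 31.

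How far the choice carries over to arrays it did not use was described by ranking on 2 replicate numbers and reading the third. Chosen without replicate 1, 95 genes were higher with hyperphyllin in that replicate for 85 in amp1-13 (89.5%, against 48.4% of ranked genes) and for 64 in wild type (67.4%, against 47%). Chosen without replicate 2, 56 were higher in amp1-13 (58.9%, against 49.5%) and 90 in wild type (94.7%, against 42.3%). Chosen without replicate 3, 91 were higher in each genotype (95.8%, against 51% in amp1-13 and 45.3% in wild type). The median differences in the unused arrays were 0.40, 0.15 and 0.32 in amp1-13 and 0.19, 1.00 and 0.67 in wild type, without replicate 1, 2 and 3. The median was smallest in replicate 2 of amp1-13 and in replicate 1 of wild type, which holds the DMSO array that stood apart from its group. Of the 95 genes chosen each time, 37, 41 and 61 were among the 95 described here.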

How the data were processed

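The authors deposited log2 expression levels made with RMA from Affymetrix AraGene ST arrays, per the submitters' processing notes. Software version, probe definitions and genome build are not given in the sources used here. No further normalization was applied. Of 38408 probe sets, 17504 were paired with a gene by the platform annotation, 16746 of them with exactly 1 gene and 758 with several. RefSeq (TAIR10.1), used for names, chromosome, gene length and gene order only, matched 16601 of the 16746. A gene with several probe sets was represented by the one with the highest mean, which gave 16554 genes.

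Group means were estimated from the 12 arrays jointly by lmFit, contrasts.fit and eBayes of limma 3.58.1 (R 4.3.3) with 8 residual and 3.9 prior degrees of freedom, and p-values were adjusted with Benjamini-Hochberg over the 17504 probe sets. Differences are between means of log2 values, and rose, fell or passed refers to an adjusted p under 0.05. The code was tested on simulated data first. Tables and rankings used pandas 2.3.3 and numpy 2.4.6. The number of arrays limits the precision, and signal over background was not analysed here.

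The members and the 17 gene lists (498 entries, 92 measured) were chosen with earlier results of these data known. Named genes were the 15 with the highest scores, all with a symbol, up to 10 with a genotype call by smallest p, close neighbours, and the genes at the rank limit; PWD was entered by locus code, and 3 listed symbols that the annotation gives to other loci were removed after the matches were seen. Alternatives were the omission of each array, all probe sets, a filter on dim probe sets, quantile normalization, array weights, a trended robust prior, the replicate number as a block, and other ranking choices. Values with DMSO array 1 of wild type alone, or with arrays 2 and 3 alone, were added after seeing the data.

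Same-numbered samples did not deviate together: over 18 pairs of groups and numbers the correlation of deviations from group means ran from -0.28 to 0.29, and 4 exceeded 0.1. The numbers were therefore not taken as pairs. Sequences were not used here.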

Additional observations from a re-analysis of the deposited data

Results flagged for a closer look

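Probe sets without a gene name in the annotation, which were not ranked above, were scored in the same way. Of 20904 such probe sets, 424 (2.03%) had hyperphyllin arrays above DMSO arrays without overlap in both genotypes, and 187 reached the score of the 100th ranked gene, with a highest score of 1.54. Among ranked genes 1.65% had such a separation. The genes behind these probe sets are not known here.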

How the results depend on the processing

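Array weights gave 16 of the 95 genes called for hyperphyllin in amp1-13, 87 for hyperphyllin in wild type, 47 for amp1-13 against wild type in DMSO, 8 in hyperphyllin, 49 over both media and 12 for the interaction, against 0, 45, 3, 2, 9 and 0; of all probe sets this setting called 0.583%, 17.3%, 15.2%, 3.25%, 16.4% and 1.66%. A trended robust prior gave 7 for hyperphyllin in amp1-13 (0.183% of all probe sets), 6 for genotype in DMSO (0.663%) and 15 over both media (2.22%). Restricting the test to probe sets above the median level gave 3, 9 and 15 in the same comparisons (0.194%, 1.75% and 5.31% of those tested). With all probe sets tested the counts were 22 for hyperphyllin in wild type (0.552% of those tested) and 0 for genotype in DMSO (0.0703%). In hyperphyllin the count was 0 (0.0677%) and over both media 5 (0.763%). In this setting both the fit and the adjustment covered 38408 features. Quantile normalization gave 0 for genotype in DMSO (0.0628% of all probe sets) and 1 in hyperphyllin (0.194%). With the replicate number as a block the counts were 0 in DMSO (0.0114% of all probe sets), 1 in hyperphyllin (0.0857%) and 8 over both media (1.28%). In 8 of the 18 pairs of samples with the same number the first correlated best with its own number. Leaving out 1 array gave 0 to 18 for hyperphyllin in amp1-13, 7 to 81 in wild type, 0 to 45 for genotype in DMSO, 0 to 8 in hyperphyllin, 1 to 45 over both media and 0 to 17 for the interaction, with the highest count each time without DMSO array 1 of wild type. For that omission the shares of all probe sets are given above. The cause of these shifts was not tested. The genes with a score above 0 numbered 311 to 561 with 1 array left out, highest again without that array, against 273; omitting an array can only widen a gap, so no count under 273 was possible. The number was 3948 when the smaller mean difference replaced the smaller gap. A new ranking without 1 array held 43 to 87 of the 95 genes, 43 without DMSO array 1 of wild type, and one without a replicate number held 37 to 61.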
